A study of Mus musculus with 24 samples.

Results

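The genes described here encode voltage-gated sodium channels, voltage-gated calcium channels and hyperpolarization-activated cyclic nucleotide-gated (HCN) channels, with their auxiliary subunits. They were chosen by name: 44 of the 32310 entries of the expression table have symbols of the Scn alpha and beta, Cacna (which takes in the alpha2delta genes), Cacnb, Cacng and Hcn families. All 44 names matched a RefSeq symbol and the rule reads symbols only, with no measured value. The values come from projection neurons of the CD1 mouse cortex, purified by fluorescence-activated cell sorting, with no genotype or treatment given. The groups were callosal projection neurons, with axons crossing to the other hemisphere, subcerebral projection neurons, with axons to brainstem or spinal targets, and corticothalamic projection neurons, with axons to the thalamus. Each was taken at embryonic days 15, 16 and 18 (E15, E16, E18) and at postnatal day 1 (P1). There were 24 libraries, 2 per group in 12 groups, but the table holds 1 pooled value per group, so no value has an SD or n of its own, and the labels do not say that the libraries came from separate animals. Which markers the sort used is not given in the sources used here.

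Voltage-gated sodium channels open on depolarization and carry the rising phase of the action potential. Each has a pore-forming alpha subunit and beta subunits that set its gating and its place in the membrane, with a dense cluster at the axon initial segment. Voltage-gated calcium channels turn depolarization into calcium entry: the alpha1 subunit forms the pore, and alpha2delta and beta subunits bring the channel to the surface. High-voltage types serve transmitter release and signalling to the nucleus, while low-voltage T-type channels open near rest and drive bursts. The gamma family holds a subunit of the muscle calcium channel and a larger branch, the transmembrane AMPA receptor regulatory proteins (TARPs), best known for carrying AMPA-type glutamate receptors to synapses. HCN channels open on hyperpolarization and pass a cation current that sets resting potential, rhythm and the summing of inputs in dendrites of cortical pyramidal neurons.

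Values are FPKM (fragments per kilobase, adjusted for the number of mapped fragments), a scale per length on which genes can be compared. In each group between 12294 and 12838 entries reached 1 FPKM. Sequencing depth is unknown. Summed markers of callosal neurons (Cux1, Cux2 and Lhx2) were 219 to 322 FPKM in callosal groups, 11.8 to 16.4 in subcerebral groups and 19.0 to 27.8 in corticothalamic groups. Summed subcerebral markers (Bcl11b, Fezf2, Ldb2 and Crym) were 451 to 619 FPKM in subcerebral groups, 41.5 to 119.6 in callosal groups and 181 to 280.1 in corticothalamic groups. Summed corticothalamic markers (Tle4, Foxp2, Tbr1 and Zfpm2) were 433 to 626 FPKM in corticothalamic groups and 50.7 to 89.3 in callosal groups, but reached 325 in subcerebral neurons at E15, against 37.9 there at P1. Markers of 2 other cell types stood out in callosal columns. The sum of 8 interneuron markers was 56.3 FPKM in callosal neurons at E15, where 7 of the 8 were higher than in any other group, against 2.02 to 3.73 in later callosal groups and at most 17.1 in the other 11 groups. Only Dlx6 of that list was listed at 0 in any group. The sum of 8 microglial markers was 20.1 to 38.8 FPKM in callosal neurons from E16 to P1 and 4.92 at E15, against 4.12 to 7.37 in subcerebral and 5.68 to 8.84 in corticothalamic groups. In those 3 later callosal groups 7 of the 8, all but Aif1, were above every subcerebral and corticothalamic value. The same 7 were above those values in callosal neurons at E15 too, with Csf1r at 0.437 FPKM against at most 0.140. Aif1 was at 1.88 FPKM in callosal neurons at E15. It made up most of the sum in subcerebral and corticothalamic groups, such as 3.81 of 4.12 FPKM in subcerebral neurons at E15. Tyrobp, C1qa, C1qb and C1qc were listed at 0 in at least 1 group. The part of these cells in the callosal differences below was not tested. A fit without the E15 callosal value leaves out the column highest in interneuron markers. It keeps the callosal columns high in microglial markers, so it cannot address microglia. Summed progenitor and radial glia markers (9 genes) differed by stage in every subtype. From E15 to P1 they went from 57.0 to 20.9 FPKM in callosal, 38.9 to 27.2 in subcerebral and 59.1 to 8.88 in corticothalamic neurons. Hes1 went the other way in callosal and subcerebral neurons, reaching 13.5 FPKM in subcerebral neurons at P1. The part of such cells in the stage changes was not tested. In sorted bulk samples, fewer cells with a transcript and less transcript per cell cannot be told apart.

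Of the 44 genes, 33 reached 1 FPKM in at least 2 groups and were tested; 18 of these averaged 10 FPKM or more over the 12 groups. The 11 others stayed at or below 0.354 FPKM, the value of Cacng6 in callosal neurons at P1. The nearest gene above that limit was Cacng5, a TARP gene, which reached 1.51 FPKM in callosal and 1.20 FPKM in corticothalamic neurons at P1. Among the untested were the sodium channel genes of skeletal muscle (Scn4a, at most 0.0131 FPKM) and sensory neurons (Scn10a, 0.0232, and Scn11a, 0.0516), the sodium-sensing channel gene Scn7a (0.00496) and the beta subunit gene Scn4b (0.0641). The L-type calcium channel genes of skeletal muscle (Cacna1s, 0.0888) and retina (Cacna1f, 0.167) and the alpha2delta gene Cacna2d4 (0.133) were also untested. Scn2a did not exceed 0.249 FPKM under its current symbol, but the table has a separate entry under the older symbol Scn2a1, outside the name rule, with 16.3 to 59.9 FPKM; it is described with the sodium channels. A second entry spelled CacnB2 did not exceed 0.118 FPKM. Reads of one gene may have been divided between such pairs of entries.

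Channel genes differed among the 3 neuron types in both directions. Callosal neurons had the most transcript of the alpha2delta gene Cacna2d1 and of the pacemaker channel gene Hcn4, and the least of the sodium channel beta subunit genes Scn2b and Scn3b. Corticothalamic neurons had the most of the calcium channel beta subunit genes Cacnb2, Cacnb3 and Cacnb4 and of Cacna1a, the P/Q-type pore gene. For each of these genes the call against subcerebral neurons missed the threshold under some alternatives, given below with the gene. Subcerebral neurons had the least Scn3a and, from E16 on, the most Hcn3, of which they had the lowest value at E15. Both Hcn3 calls missed the threshold under some alternatives, and neither Scn3a call did. Differences are on the log2(FPKM + 1) scale, as means over the 4 stages ± the standard error (SE) of a limma fit with terms for stage and subtype. The adjusted p measures how evenly a difference held over stages, since each group has a single value.

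Between callosal and subcerebral neurons, 6 of the 33 genes were higher and 8 lower in callosal neurons (limma adjusted p under 0.05), 42.4% in all. Over all 13946 genes tested 29.3% passed, 14.1% higher and 15.2% lower. The median difference was 0.0049 for the channel genes and -0.00572 for all genes. Between callosal and corticothalamic neurons 4 were higher and 10 lower in callosal neurons, again 42.4%, against 31.3% of all genes (15.3% higher, 16% lower). The median there was -0.0257 for channel genes and 0.0131 for all genes. Between subcerebral and corticothalamic neurons 3 were higher and 6 lower in subcerebral neurons, 27.3%, against 27.5% of all genes (14.7% higher, 12.8% lower), so the share was near the background. The median there was -0.0414 for channel genes and -0.00319 for all genes. Left-out stages moved these counts, and the share of all genes moved with them. Between callosal and subcerebral neurons 21 channel genes passed with E15 left out (44.7% of all genes), 6 with E16 left out (8.02%), 6 with E18 left out (7.37%) and 9 with P1 left out (16.6%). Between callosal and corticothalamic neurons 18 passed with E15 left out (32.8% of all genes), 8 with E16 left out (13.4%), 11 with E18 left out (14.7%) and 14 with P1 left out (27.2%). Between subcerebral and corticothalamic neurons 16 passed with E15 left out (45.3% of all genes), 1 with E16 left out (2.65%), 1 with E18 left out (1.89%) and 2 with P1 left out (8.07%). In 13 of the 33 genes no subtype comparison passed. The matching share of all genes was not counted, so this number has no background beside it.

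**Figure D1:**
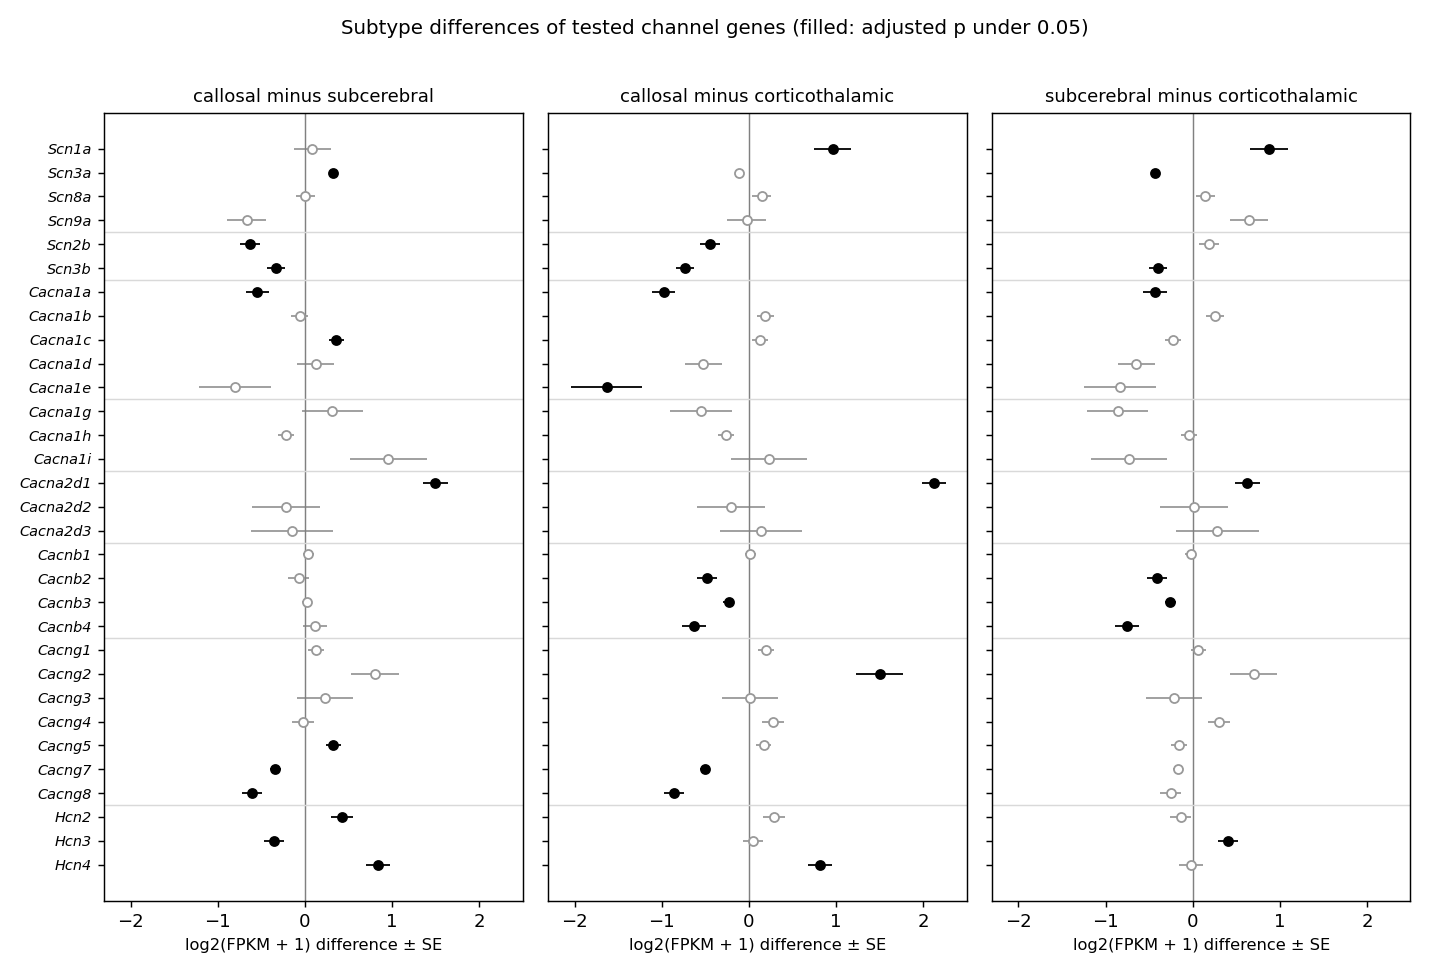
Difference of 31 of the 33 tested channel genes between subtypes, in log2(FPKM + 1), first-named minus second-named neurons, as the fitted mean over the 4 stages ± SE; filled points passed limma adjusted p under 0.05 and lines separate the subunit classes. Cacna2d1 lies farthest right in both callosal comparisons (1.497 and 2.13), and the sodium beta genes Scn2b and Scn3b lie left of zero in both.

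The start regions of 4 genes are shown: Cacna2d1, Cacng2 and Cacna1e, which had the largest differences between callosal and corticothalamic neurons, and Hcn2, whose change with age had the lowest adjusted p of the HCN genes. Each is the RefSeq window of 250 bases before to 50 bases after the annotated start in mouse build GRCm38.p6, 5′ to 3′ on the gene's strand, with the letters of the GC box, GGGCGG on either strand, in capitals; adjoining boxes run together. The windows are chr5:15934441-15934740 (plus strand) for Cacna2d1, chr15:78119231-78119530 (minus strand) for Cacng2, chr1:154725871-154726170 (minus strand) for Cacna1e and chr10:79716384-79716683 (plus strand) for Hcn2.
Cacna2d1: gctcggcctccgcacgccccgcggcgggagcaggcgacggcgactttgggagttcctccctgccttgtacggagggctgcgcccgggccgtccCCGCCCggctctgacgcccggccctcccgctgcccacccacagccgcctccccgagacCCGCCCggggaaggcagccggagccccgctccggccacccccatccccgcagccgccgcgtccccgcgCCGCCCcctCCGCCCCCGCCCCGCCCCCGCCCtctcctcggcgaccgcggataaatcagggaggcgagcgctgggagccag
Cacng2: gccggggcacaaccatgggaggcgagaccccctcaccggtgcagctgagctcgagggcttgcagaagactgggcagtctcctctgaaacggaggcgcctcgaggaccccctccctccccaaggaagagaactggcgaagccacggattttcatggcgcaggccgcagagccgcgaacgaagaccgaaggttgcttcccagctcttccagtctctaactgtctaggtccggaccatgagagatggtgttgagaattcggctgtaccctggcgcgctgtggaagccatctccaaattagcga
Cacna1e: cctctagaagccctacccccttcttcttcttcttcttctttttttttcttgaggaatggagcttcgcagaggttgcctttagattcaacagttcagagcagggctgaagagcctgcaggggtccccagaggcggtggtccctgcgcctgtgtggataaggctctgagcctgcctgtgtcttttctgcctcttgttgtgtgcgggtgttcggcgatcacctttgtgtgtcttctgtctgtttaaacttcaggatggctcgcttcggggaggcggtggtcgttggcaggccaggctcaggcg
Hcn2: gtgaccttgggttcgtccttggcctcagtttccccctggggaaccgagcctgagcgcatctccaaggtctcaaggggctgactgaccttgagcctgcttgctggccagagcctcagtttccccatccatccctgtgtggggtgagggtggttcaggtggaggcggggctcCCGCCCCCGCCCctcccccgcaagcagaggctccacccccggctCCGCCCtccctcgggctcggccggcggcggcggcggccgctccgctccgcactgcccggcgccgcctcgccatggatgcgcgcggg
The Cacna2d1 window was 80.0% G and C and held 7 GC boxes, and the Hcn2 window was 72.3% G and C with 3. The Cacng2 window (61.0%) and the Cacna1e window (55.3%) held none. Of the 33 tested genes 23 had entries in the promoter table, with 33 windows in all, of which 15 held a GC box, against 35.7% of the 32851 windows of the whole table. The E box, CANNTG, was in 22 of the 33 windows and in 72.3% of all, the CCAAT box (CCAAT) in 8 and in 37.4%, the TATA box (TATAAA) in 1 and in 13.6%, and the cyclic AMP response element, TGACGTCA, in 0 and in 1.79%. Both strands were searched, and a match is a description of letters only.

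Of the sodium channel alpha subunits, Scn3a, the channel that prevails in embryonic brain, had the highest mean of the entries chosen by name, at 21.7 FPKM over the 12 groups. From E15 to P1 it had 19.4, 26.5, 26.2 and 18.8 FPKM in callosal neurons, 15.2, 21.7, 19.5 and 15.4 FPKM in subcerebral neurons and 20.7, 29.2, 27.2 and 20.9 FPKM in corticothalamic neurons. At each stage the subcerebral value was the lowest, and the highest levels of all 3 subtypes were at E16 and E18. The difference was 0.32 ± 0.04 for callosal minus subcerebral neurons (limma adjusted p = 0.00184) and -0.43 ± 0.04 for subcerebral minus corticothalamic neurons (limma adjusted p = 0.00136), and both passed whichever stage was left out. Across stages the ranges of the subtypes overlapped.

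Scn1a, the channel later found mainly in fast-spiking interneurons and at the initial segment, was low in corticothalamic neurons. It had 1.82, 2.64, 2.93 and 2.40 FPKM in callosal neurons, 0.340, 3.04, 3.54 and 3.37 FPKM in subcerebral neurons and 0.235, 0.859, 1.05 and 1.01 FPKM in corticothalamic neurons from E15 to P1. All 4 callosal values were above all 4 corticothalamic values, and the subcerebral value at E15 was far below the later ones. The differences were 0.96 ± 0.21 for callosal minus corticothalamic (limma adjusted p = 0.0103) and 0.88 ± 0.21 for subcerebral minus corticothalamic neurons (limma adjusted p = 0.0209). The adjusted p of the callosal difference was 0.0688 with E16 left out and 0.0591 with E18 left out, and that of the subcerebral difference was 0.130 with E16 left out, 0.1497 with E18 left out and 0.0961 with P1 left out. The P1 minus E15 change of Scn1a was 0.89 ± 0.25 (limma adjusted p = 0.0113), with an adjusted p of 0.0612 with corticothalamic neurons left out.

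Scn9a, a channel best known from pain-sensing neurons that amplifies small depolarizations, rose with age. It had 0.599, 1.85, 3.88 and 2.63 FPKM in callosal neurons, 0.501, 4.61, 8.86 and 5.22 FPKM in subcerebral neurons and 0.879, 2.17, 3.10 and 2.55 FPKM in corticothalamic neurons. All P1 values were above all E15 values, and the E18 value was the highest in each subtype. Its change, P1 minus E15, was 1.38 ± 0.25 (limma adjusted p = 0.00141). Between subtypes no difference of Scn9a passed (callosal minus subcerebral -0.67 ± 0.22, limma adjusted p = 0.0508). Scn8a, the main channel of adult nodes and initial segments, ranged from 13.9 to 22.6 FPKM and passed in none of the 4 comparisons.

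The entry named Scn2a1, the older symbol of Scn2a, which encodes the channel of early axon initial segments and unmyelinated axons, was the most abundant sodium alpha entry in most groups. It had 21.4, 30.03, 34.0 and 29.0 FPKM in callosal neurons, 16.3, 52.5, 57.1 and 59.9 FPKM in subcerebral neurons and 16.5, 36.2, 54.3 and 53.2 FPKM in corticothalamic neurons. At P1 the callosal value was the lowest, and at E15 it was the highest. With age it changed by 1.29 ± 0.24 (limma adjusted p = 0.00176), and no subtype difference passed (callosal minus subcerebral -0.54 ± 0.21, limma adjusted p = 0.0863). Of the summed FPKM of the sodium alpha entries it made up 38.6% at P1 and 35.9% at E15 in callosal neurons. That share was 56.2% at P1 and 31.9% at E15 in subcerebral neurons, and 56.6% at P1 and 29.6% at E15 in corticothalamic neurons. The Scn3a share was lower at P1 than at E15 in each subtype, at 25.0% at P1 against 32.6% at E15 in callosal neurons, 14.4% at P1 against 29.8% at E15 in subcerebral neurons and 22.2% at P1 against 37.2% at E15 in corticothalamic neurons. These shares have no test.

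The sodium channel beta subunit genes Scn2b and Scn3b were lower in callosal neurons than in both other types. Scn3b, whose product affects channel inactivation and helps carry channels to the surface, was the more abundant of the pair. It had 59.5, 71.6, 74.4 and 76.6 FPKM in callosal neurons, 65.9, 91.3, 95.7 and 107 FPKM in subcerebral neurons and 77.5, 106, 146 and 157 FPKM in corticothalamic neurons. The order was the same at each stage, with corticothalamic neurons highest, and no callosal value reached the lowest corticothalamic value. The differences were -0.73 ± 0.11 for callosal minus corticothalamic (limma adjusted p = 0.00154), -0.33 ± 0.11 for callosal minus subcerebral (limma adjusted p = 0.0465) and -0.40 ± 0.11 for subcerebral minus corticothalamic neurons (limma adjusted p = 0.0276). The callosal minus subcerebral call was narrow, with an adjusted p of 0.0727 with no filter, 0.0765 with quantile normalization, 0.0510 without trend or robust moderation, 0.161 with E16 left out, 0.163 with E18 left out and 0.141 with P1 left out. That of subcerebral minus corticothalamic neurons was 0.0992 with E16 left out, 0.175 with E18 left out and 0.0980 with P1 left out. The P1 minus E15 change of Scn3b was 0.69 ± 0.12 (limma adjusted p = 0.00120).

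Scn2b, which encodes a disulfide-linked beta subunit that raises surface expression of the channel, had 1.55, 1.87, 2.25 and 0.630 FPKM in callosal neurons, 2.36, 2.96, 4.02 and 2.30 FPKM in subcerebral neurons and 2.58, 2.99, 3.22 and 1.19 FPKM in corticothalamic neurons. No callosal value reached the lowest subcerebral value, and the lowest value of each subtype was at P1. The callosal differences were -0.63 ± 0.12 against subcerebral (limma adjusted p = 0.00611) and -0.44 ± 0.12 against corticothalamic neurons (limma adjusted p = 0.0206). The adjusted p against subcerebral neurons was 0.0592 with E18 left out, and against corticothalamic neurons 0.104 with E16 left out and 0.0971 with E18 left out. Unlike Scn3b, Scn2b was lower at P1 than at E15, by a change of -0.46 ± 0.13 (limma adjusted p = 0.0140; 0.143 with callosal neurons left out and 0.157 with corticothalamic neurons left out). The E15 and P1 values overlapped, since the subcerebral pair was 2.30 FPKM at P1 and 2.36 FPKM at E15.

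The 5 tested pore genes of the high-voltage calcium channels were each near or above 10 FPKM in most groups, and corticothalamic neurons had the highest mean level of 3 of them (Cacna1a, Cacna1d and Cacna1e). Cacna1d, an L-type channel gene with a low activation threshold, had the highest mean of the class. Its values were 12.8, 18.1, 24.0 and 24.5 FPKM in callosal neurons, 24.1, 14.5, 16.4 and 16.4 FPKM in subcerebral neurons and 29.996, 26.9, 27.0 and 28.4 FPKM in corticothalamic neurons. All 4 corticothalamic values were above every other value, but no difference passed (subcerebral minus corticothalamic -0.65 ± 0.21, limma adjusted p = 0.0518; callosal minus corticothalamic -0.52 ± 0.21, limma adjusted p = 0.0944). The callosal values were higher from E15 to P1, and the subcerebral values were highest at E15.

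Cacna1e, which encodes the R-type channel of dendrites and spines, had 3.49, 10.5, 18.2 and 14.5 FPKM in callosal neurons, 25.2, 17.5, 20.0 and 12.9 FPKM in subcerebral neurons and 38.4, 40.6, 30.7 and 26.3 FPKM in corticothalamic neurons. Every corticothalamic value was above every callosal and subcerebral value, and the callosal value at E15 was the lowest of the 12. The callosal minus corticothalamic difference was -1.63 ± 0.41 (limma adjusted p = 0.0183; 0.107 with E16 left out). Those of subcerebral minus corticothalamic neurons (-0.83 ± 0.41, limma adjusted p = 0.153) and of callosal minus subcerebral neurons (-0.80 ± 0.41, limma adjusted p = 0.170) did not pass. The gap narrowed with age: 14.5 FPKM in callosal against 26.3 FPKM in corticothalamic neurons at P1, and 3.49 FPKM in callosal against 38.4 FPKM in corticothalamic neurons at E15, a change that was not tested.

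Cacna1a, the P/Q-type channel of fast transmitter release, differed among all 3 subtypes. It had 7.55, 7.59, 13.2 and 20.9 FPKM in callosal neurons, 16.1, 13.4, 16.8 and 22.7 FPKM in subcerebral neurons and 19.4, 19.3, 22.7 and 34.0 FPKM in corticothalamic neurons. The order of the subtypes was the same at each stage, with callosal neurons lowest. The differences were -0.98 ± 0.13 for callosal minus corticothalamic (limma adjusted p = 0.00114), -0.55 ± 0.13 for callosal minus subcerebral (limma adjusted p = 0.0180; 0.114 with E16 left out, 0.0681 with E18 left out and 0.0637 with the third subtype left out) and -0.43 ± 0.13 for subcerebral minus corticothalamic neurons (limma adjusted p = 0.0440; 0.0741 with no filter, 0.161 with E16 left out, 0.169 with E18 left out and 0.104 with P1 left out). P1 values did not overlap E15 values, and the P1 minus E15 change was 0.87 ± 0.15 (limma adjusted p = 0.00117).

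The other release channel gene, Cacna1b (N-type), passed in no subtype comparison, ranged from 10.9 to 25.6 FPKM, and rose by 0.91 ± 0.12 between E15 and P1 (limma adjusted p = 0.000208). Cacna1c, the L-type channel that signals from the surface to the nucleus, ranged from 10.7 to 19.4 FPKM and was lower at P1 than at E15 by a change of -0.38 ± 0.11 (limma adjusted p = 0.0111; 0.0732 with callosal neurons left out). It was also higher in callosal than in subcerebral neurons by 0.36 ± 0.09 (limma adjusted p = 0.0195; 0.138 with E16 left out, 0.140 with E18 left out and 0.0585 with P1 left out).

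Among the 3 T-type genes no subtype difference passed in limma after adjustment, and 1 gene per comparison had an unadjusted p under 0.05. Over all genes 27.5% to 31.3% passed after adjustment in these comparisons. At E15 Cacna1h led in all 3 subtypes, and at P1 Cacna1g led in callosal and corticothalamic neurons and Cacna1h, by a small margin, in subcerebral neurons. Cacna1h, which had the highest mean of the class, had 44.8, 44.6, 46.4 and 42.5 FPKM in callosal neurons, 62.5, 55.4, 47.2 and 44.5 FPKM in subcerebral neurons and 65.4, 59.3, 48.3 and 43.6 FPKM in corticothalamic neurons. P1 values lay below all E15 values, most closely in callosal neurons. P1 values differed from E15 values by -0.38 ± 0.10 (limma adjusted p = 0.0112; 0.113 with subcerebral neurons left out and 0.127 with corticothalamic neurons left out).

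Cacna1g, the T-type channel known for burst firing in thalamus and cortex, had 9.76, 15.98, 60.7 and 93.6 FPKM in callosal neurons, 24.0, 12.4, 29.2 and 43.2 FPKM in subcerebral neurons and 22.9, 35.0, 68.5 and 80.3 FPKM in corticothalamic neurons. All P1 values were above all E15 values, and the subcerebral value at P1 was the lowest of the 3. The P1 minus E15 change was 1.91 ± 0.41 (limma adjusted p = 0.00324). By subtype the change was 3.14 in callosal, 0.82 in subcerebral and 1.77 in corticothalamic neurons, a spread that was not tested. The share of Cacna1g in the summed T-type FPKM was 63.5% at P1 and 17.6% at E15 in callosal neurons. It was 48.2% at P1 and 27.3% at E15 in subcerebral neurons, and 63.4% at P1 and 24.9% at E15 in corticothalamic neurons. The Cacna1h share was 28.8% at P1 and 80.8% at E15 in callosal neurons, 49.6% at P1 and 70.9% at E15 in subcerebral neurons, and 34.4% at P1 and 71.0% at E15 in corticothalamic neurons. These shares have no test.

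The third T-type gene, Cacna1i, is named after its values were seen. It had 0.908, 3.41, 8.66 and 11.4 FPKM in callosal neurons, while subcerebral values stayed between 1.60 and 2.10 FPKM and corticothalamic values between 2.68 and 4.82 FPKM. From E15 to E18 the callosal value passed from below to above the other subtypes, and none of its 4 comparisons passed (P1 minus E15 0.83 ± 0.50, limma adjusted p = 0.174).

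The alpha2delta gene Cacna2d1, whose product is the binding site of gabapentin and also acts in synapse formation, showed the largest subtype difference of the 33 genes in both callosal comparisons. It had 41.7, 60.3, 57.9 and 52.7 FPKM in callosal neurons, 10.95, 16.2, 23.9 and 24.6 FPKM in subcerebral neurons and 6.76, 10.03, 15.5 and 15.2 FPKM in corticothalamic neurons. Every callosal value was above every other value, and subcerebral neurons were above corticothalamic neurons at each stage. It averaged 53.2 FPKM over the stages in callosal neurons, 18.9 FPKM in subcerebral neurons and 11.9 FPKM in corticothalamic neurons. The differences were 2.13 ± 0.14 for callosal minus corticothalamic (limma adjusted p = 4.08e-05), 1.497 ± 0.14 for callosal minus subcerebral (limma adjusted p = 0.000382) and 0.63 ± 0.14 for subcerebral minus corticothalamic neurons (limma adjusted p = 0.0165; 0.0826 with E16 left out and 0.0997 with E18 left out). Both callosal differences passed under every alternative tried. Its change, P1 minus E15, was 0.83 ± 0.16 (limma adjusted p = 0.00203). Its GC-rich start region is printed above.

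Cacna2d1 made up 81.1% to 85.7% of the summed alpha2delta FPKM in callosal neurons. In subcerebral neurons its share was 40.2% at P1 and 72.9% at E15. Cacna2d3, an alpha2delta gene known from hearing and pain pathways and named here after its values were seen, had 3.93, 4.58, 13.7 and 34.2 FPKM in subcerebral neurons. It stayed between 4.67 and 11.9 FPKM in callosal and between 5.42 and 11.1 FPKM in corticothalamic neurons, and passed in no comparison (P1 minus E15 1.33 ± 0.55, limma adjusted p = 0.0575).

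The beta subunits bind the pore subunit inside the cell and set its number at the surface. In 3 of the 4 genes corticothalamic neurons were above both other types, and between callosal and subcerebral neurons 0 of 4 passed in limma, also at an unadjusted p under 0.05. Over all genes 31.3% passed between callosal and corticothalamic neurons and 27.5% between subcerebral and corticothalamic neurons. Between callosal and subcerebral neurons 29.3% did, so most genes did not pass there either. Cacnb3 had the highest mean of all 44 genes, at 168 FPKM. Its values were 164, 158, 162 and 152 FPKM in callosal neurons, 164, 160.2, 159.8 and 142 FPKM in subcerebral neurons and 216, 178, 194 and 163 FPKM in corticothalamic neurons. Corticothalamic neurons were highest at each stage, though their P1 value was within the range of the others. The differences were -0.23 ± 0.06 for callosal minus corticothalamic (limma adjusted p = 0.0218; 0.0532 with E15 left out, 0.0999 with E16 left out, 0.139 with E18 left out and 0.0590 with the E15 callosal value left out) and -0.26 ± 0.06 for subcerebral minus corticothalamic neurons (limma adjusted p = 0.0202; 0.102 with E16 left out, 0.156 with E18 left out, 0.0587 with P1 left out and 0.0542 with the third subtype left out). The P1 minus E15 change of Cacnb3 was -0.24 ± 0.07 (limma adjusted p = 0.0168; 0.0640 with subcerebral neurons left out and 0.188 with corticothalamic neurons left out).

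Cacnb4, the beta subunit best known from cerebellum, where mouse mutants are ataxic, had 7.23, 9.64, 9.29 and 7.51 FPKM in callosal neurons, 9.35, 9.19, 6.84 and 5.63 FPKM in subcerebral neurons and 10.6, 18.04, 15.03 and 11.5 FPKM in corticothalamic neurons. All 4 corticothalamic values were above every other value. The differences were -0.63 ± 0.14 for callosal minus corticothalamic (limma adjusted p = 0.00970; 0.0857 with E16 left out) and -0.75 ± 0.14 for subcerebral minus corticothalamic neurons (limma adjusted p = 0.00892; 0.0808 with E16 left out, 0.0922 with E18 left out and 0.0554 with P1 left out). Cacnb2, the main beta subunit of heart, was low, from 0.355 to 1.58 FPKM, and was lower in callosal (-0.48 ± 0.12, limma adjusted p = 0.0158) and in subcerebral neurons (-0.41 ± 0.12, limma adjusted p = 0.0346) than in corticothalamic neurons. The callosal call had an adjusted p of 0.109 with E16 left out, and the subcerebral call of 0.0545 with quantile normalization, 0.0760 with E15 left out, 0.156 with E16 left out, 0.0932 with E18 left out, 0.0966 with P1 left out and 0.0775 with the third subtype left out. Cacnb1, the beta subunit of skeletal muscle and brain, lay between 32.8 and 39.7 FPKM in all 12 groups and passed in no comparison.

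Within the gamma family, callosal neurons had less of Cacng7 and Cacng8 and more of Cacng2 than corticothalamic neurons. Cacng4, a TARP gene of the developing brain, had the highest mean of the family. It had 71.7, 85.9, 88.8 and 83.3 FPKM in callosal neurons, 72.5, 91.7, 90.8 and 79.5 FPKM in subcerebral neurons and 81.5, 74.2, 63.3 and 54.0 FPKM in corticothalamic neurons. At E15 corticothalamic neurons had the highest value and from E16 on the lowest, and none of the 4 comparisons passed (callosal minus corticothalamic 0.28 ± 0.13, limma adjusted p = 0.121).

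Cacng2, which encodes stargazin, the TARP lost in the stargazer mouse, had 8.18, 8.80, 9.31 and 10.3 FPKM in callosal neurons, 1.64, 3.76, 6.94 and 10.4 FPKM in subcerebral neurons and 2.20, 1.54, 2.52 and 4.70 FPKM in corticothalamic neurons. All callosal values were above all corticothalamic values, while the subcerebral value lay near the corticothalamic one at E15 and near the callosal one at P1. The callosal minus corticothalamic difference was 1.502 ± 0.27 (limma adjusted p = 0.00447) and passed whichever stage was left out. Against subcerebral neurons the callosal difference was 0.80 ± 0.27 (limma adjusted p = 0.0576). With age it changed by 1.08 ± 0.32 (limma adjusted p = 0.0151; 0.0827 with subcerebral neurons left out and 0.0548 with corticothalamic neurons left out). By subtype it was 0.30 in callosal, 2.11 in subcerebral and 0.83 in corticothalamic neurons.

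Cacng8, a TARP gene of cortex and hippocampus, had 15.8, 15.9, 18.9 and 19.7 FPKM in callosal neurons, 27.8, 20.1, 23.9 and 40.8 FPKM in subcerebral neurons and 30.3, 30.2, 32.3 and 38.2 FPKM in corticothalamic neurons. No callosal value reached the lowest value of either other type. The callosal differences were -0.86 ± 0.12 against corticothalamic (limma adjusted p = 0.00120) and -0.61 ± 0.12 against subcerebral neurons (limma adjusted p = 0.00757), and both passed whichever stage was left out. Cacng7, a TARP gene of the second branch, between 51.0 and 89.5 FPKM, was also lower in callosal than in corticothalamic (-0.50 ± 0.06, limma adjusted p = 0.000602) and subcerebral neurons (-0.34 ± 0.06, limma adjusted p = 0.00540; 0.0574 with E16 left out).

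Cacng1, the gamma subunit of the skeletal muscle calcium channel, was low and rose with age. It had 1.19, 1.51, 1.93 and 4.28 FPKM in callosal neurons, 0.930, 1.69, 1.89 and 2.94 FPKM in subcerebral neurons and 0.875, 1.43, 1.61 and 3.16 FPKM in corticothalamic neurons. All P1 values were above all E15 values, and the P1 minus E15 change was 1.15 ± 0.10 (limma adjusted p = 3.23e-05). Cacng5, at most 1.51 FPKM, rose by 0.90 ± 0.10 (limma adjusted p = 9.81e-05) and was higher in callosal than in subcerebral neurons (0.33 ± 0.09, limma adjusted p = 0.0253; 0.137 with E16 left out and 0.124 with E18 left out).

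**Figure D2:**
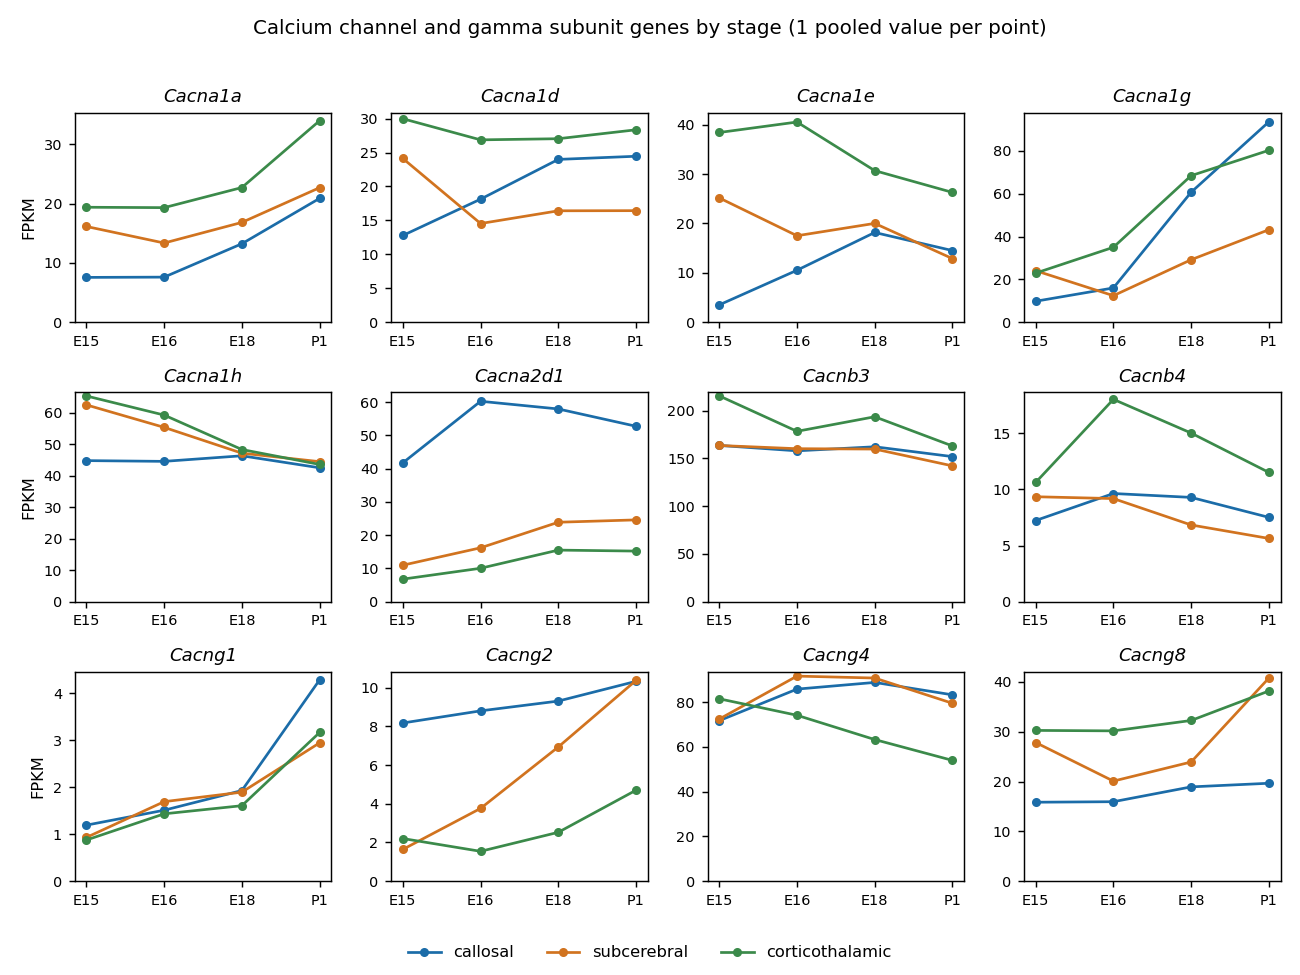
FPKM (linear axis from 0) of 12 calcium channel and gamma family genes by stage, 1 pooled value per point, for callosal, subcerebral and corticothalamic neurons. The callosal line of Cacna2d1 lies at 41.7 to 60.3 FPKM, above all other values, and the corticothalamic line of Cacnb4 lies above both others at every stage.

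HCN genes split callosal from subcerebral neurons: callosal neurons had more Hcn4 and Hcn2 and less Hcn3. All 3 rose between E15 and P1. Hcn3, the least studied of the family, had the highest mean of the class. It had 21.5, 24.3, 27.9 and 26.4 FPKM in callosal neurons, 20.3, 31.6, 38.6 and 43.1 FPKM in subcerebral neurons and 20.5, 22.5, 27.1 and 26.4 FPKM in corticothalamic neurons. The E15 values lay between 20.3 and 21.5 FPKM, and from E16 on subcerebral neurons were highest. The differences were 0.41 ± 0.11 for subcerebral minus corticothalamic (limma adjusted p = 0.0312) and -0.36 ± 0.11 for callosal minus subcerebral neurons (limma adjusted p = 0.0457). The first had an adjusted p of 0.0544 with no filter, 0.155 with E16 left out, 0.181 with E18 left out, 0.122 with P1 left out and 0.0670 with the third subtype left out. The second had one of 0.0739 with no filter, 0.0513 without trend or robust moderation, 0.177 with E16 left out, 0.220 with E18 left out, 0.192 with P1 left out and 0.107 with the third subtype left out. From E15 to P1 the change was 0.56 ± 0.13 (limma adjusted p = 0.00507).

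Hcn4, the slow channel of the cardiac pacemaker, had 7.70, 11.1, 11.95 and 14.7 FPKM in callosal neurons, 3.55, 5.77, 6.61 and 7.85 FPKM in subcerebral neurons and 5.85, 5.79, 5.16 and 6.63 FPKM in corticothalamic neurons. Callosal neurons were highest at each stage, and only their E15 value fell within the subcerebral range. The callosal differences were 0.84 ± 0.14 against subcerebral (limma adjusted p = 0.00372) and 0.82 ± 0.14 against corticothalamic neurons (limma adjusted p = 0.00286), and both passed whichever stage was left out and without the E15 callosal value. P1 values differed from E15 values by 0.66 ± 0.16 (limma adjusted p = 0.00584; 0.0826 with callosal neurons left out and 0.0765 with subcerebral neurons left out).

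Hcn2, a channel strongly tuned by cyclic AMP and widespread in brain, had 3.22, 5.27, 9.73 and 15.2 FPKM in callosal neurons, 1.18, 4.36, 7.28 and 13.5 FPKM in subcerebral neurons and 2.16, 4.45, 7.92 and 12.5 FPKM in corticothalamic neurons. It was higher at each later stage in every subtype, with callosal neurons highest at each stage. Its change, P1 minus E15, was 2.26 ± 0.14 (limma adjusted p = 7.38e-06) and passed under every alternative tried. The callosal minus subcerebral difference was 0.43 ± 0.12 (limma adjusted p = 0.0328), with an adjusted p of 0.0534 with no filter, 0.101 with E16 left out, 0.147 with E18 left out, 0.0546 with P1 left out, 0.0981 with the third subtype left out and 0.0683 with the E15 callosal value left out. The callosal minus corticothalamic difference was 0.29 ± 0.12 (limma adjusted p = 0.111), with an adjusted p of 0.0329 with E15 left out and 0.0198 with the third subtype left out.

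**Figure D3:**
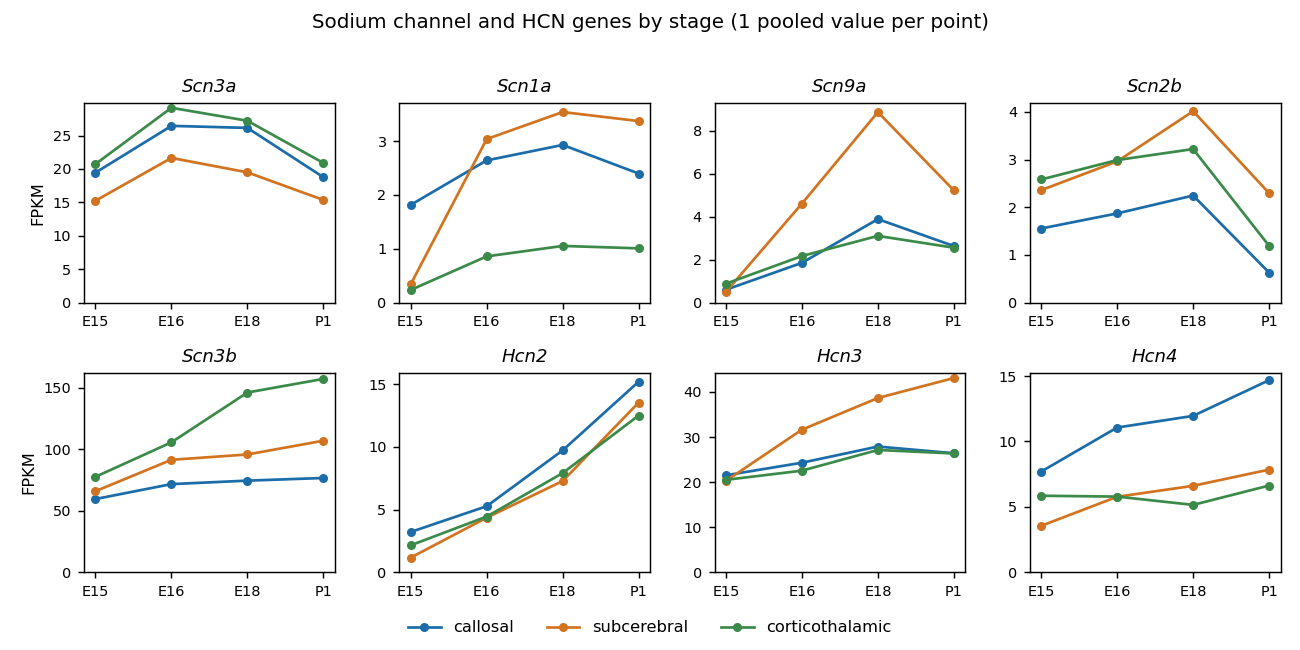
FPKM (linear axis from 0) of 5 sodium channel and 3 HCN genes by stage, 1 pooled value per point, for callosal, subcerebral and corticothalamic neurons. Hcn4 is highest in callosal neurons at every stage, Hcn2 is higher at each later stage, and the callosal line of Scn2b lies below both others.

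Between E15 and P1 more channel genes rose than fell. Of the 33 tested, 17 were higher and 4 lower at P1, 63.6% in all, against 67.4% of all genes, of which 33.8% were higher and 33.6% lower. The share that passed was thus near the background, and the median change was 0.616 for the channel genes and 0.00126 for all genes. Among the 6 largest changes were those of Hcn2, Cacna1g, Scn9a and Cacng1, and the lower genes were Scn2b, Cacna1c, Cacna1h and Cacnb3. Hcn2, Hcn3, Hcn4 and Scn3b rose. By class, 2 of 4 sodium alpha genes and 4 of 7 gamma family genes rose, and among 5 high-voltage pore genes 2 rose and 1 fell. Of 3 T-type genes 1 rose and 1 fell, of 4 calcium beta genes likewise 1 rose and 1 fell, and of 3 alpha2delta genes 1 rose. Of the 21 calls 12 passed under every alternative that tested the gene, a number with no matching count over all genes. Among these 12, Cacng1 and Cacng5 fell below the filter in some alternatives and were tested in 9 and 7 of the 10. Age and any feature of collection or preparation common to the groups of a stage cannot be told apart. Summed progenitor and radial glia markers were also lower at P1 than at E15 in each subtype, and their part was not tested.

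**Figure D4:**
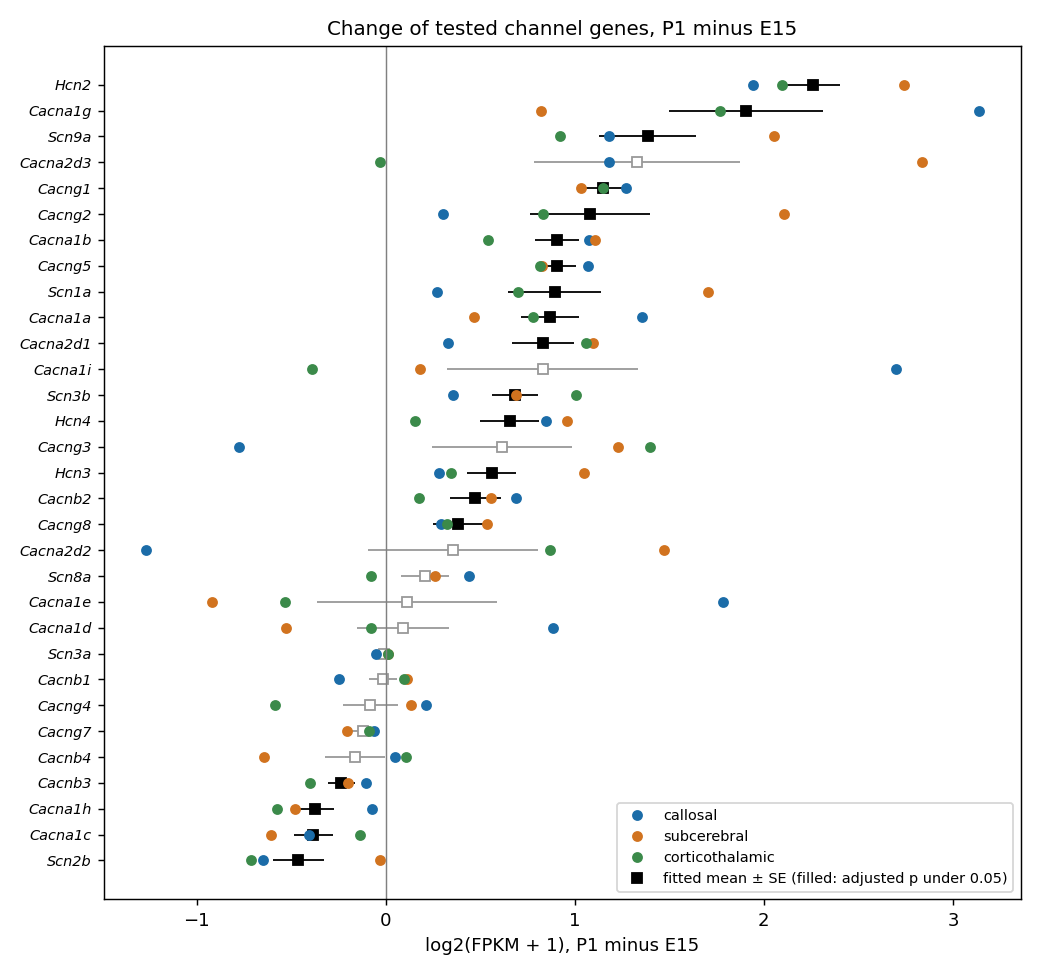
Change of 31 of the 33 tested channel genes in log2(FPKM + 1), P1 minus E15: circles are the 3 subtypes, and squares the fitted mean ± SE, filled where limma adjusted p was under 0.05. Hcn2 lies farthest right of the plotted means, at 2.26, and for Cacna1e, Cacna2d2, Cacng3 and Cacna1d subtypes lie more than 0.5 from zero on both sides.

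A pair of genes with their highest callosal value at E15 were Cacna2d2, an alpha2delta gene of cerebellum and interneurons, and Cacng3, a TARP gene. Cacna2d2 had 2.28, 0.285, 0.427 and 0.363 FPKM in callosal neurons, 0.140, 0.592, 1.62 and 2.16 FPKM in subcerebral neurons and 0.496, 0.771, 0.979 and 1.73 FPKM in corticothalamic neurons. Cacng3 had 2.14, 0.478, 0.883 and 0.832 FPKM in callosal neurons, 0.121, 0.272, 1.24 and 1.62 FPKM in subcerebral neurons and 0.264, 0.674, 1.18 and 2.33 FPKM in corticothalamic neurons. Both were highest at E15 in callosal neurons and at P1 in the other types, and neither passed in any of the 4 comparisons. They were named after their values were seen. The E15 callosal column is the one with 56.3 FPKM of summed interneuron markers, among them Dlx1 at 20.0, Lhx6 at 16.3 and Gad1 at 7.53 FPKM, and the part of interneurons in these 2 values was not tested. Without that value, 16 genes passed between callosal and subcerebral neurons, 14 between callosal and corticothalamic neurons, 12 between subcerebral and corticothalamic neurons and 22 between P1 and E15. The share of all genes moved as well. It was 32.7% between callosal and subcerebral neurons, against 29.3% with that value kept. Between callosal and corticothalamic neurons it was 26.8%, against 31.3%. For subcerebral against corticothalamic neurons and for P1 against E15 the matching share is not given. The counts of 12 and 22 thus have no background beside them.

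**Figure D5:**
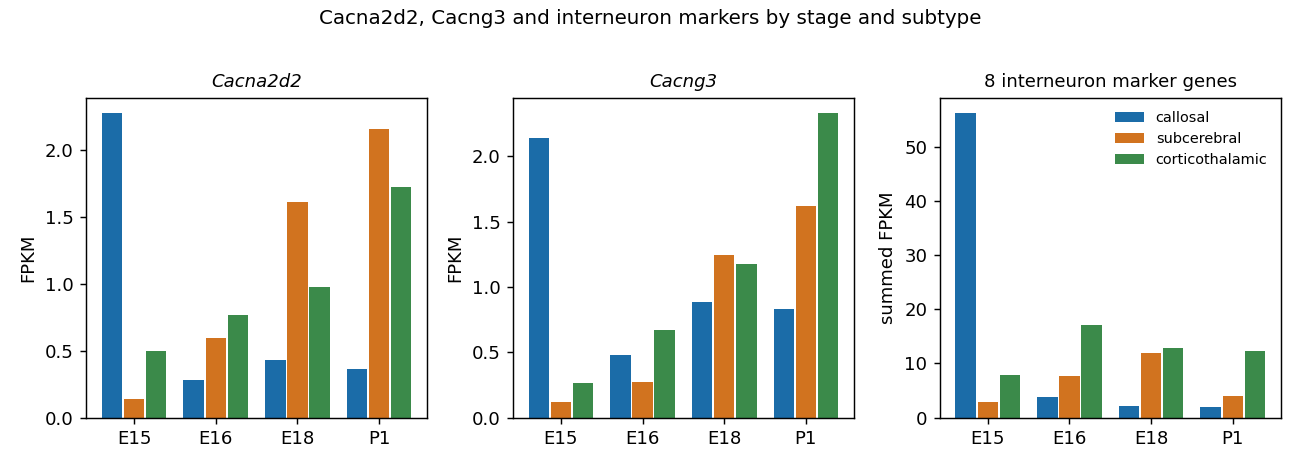
FPKM of Cacna2d2 and Cacng3 and summed FPKM of 8 interneuron marker genes (Gad1, Gad2, Slc32a1, Dlx1, Dlx2, Dlx5, Dlx6 and Lhx6) by stage, 1 pooled value per bar, for callosal, subcerebral and corticothalamic neurons. The E15 callosal bars reach 2.28, 2.14 and 56.3 FPKM, against at most 0.427, 0.883 and 3.73 FPKM in later callosal neurons.

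A list of 32 further genes, called partners here, was also read. It holds genes whose products bind or regulate these channels. It also holds 4 genes of the sodium leak channel complex, whose channel is outside the families chosen by name. All 32 partners had an entry and 29 were tested. In callosal minus subcerebral neurons 3 were higher and 11 lower, 48.3% against 29.3% of all genes. In callosal minus corticothalamic neurons 1 was higher and 9 lower, 34.5% against 31.3%. The share in both directions together was near the background. By direction it was less so, since 15.3% of all genes were higher and 16% lower. The median was -0.158 for the partners and 0.0131 for all genes. Of the lower calls in callosal neurons, the leak complex gave 3 of the 11 against subcerebral and 3 of the 9 against corticothalamic neurons. The partner shares without its genes were not counted. In subcerebral minus corticothalamic neurons 2 were higher and 3 lower, 17.2% against 27.5%. At P1 17 were higher and 4 lower than at E15, 72.4% against 67.4%, also near the background in both directions together. Of all genes 33.8% were higher and 33.6% lower at P1. The median change was 0.591 for the partners and 0.00126 for all genes. Pex5l, which encodes TRIP8b, the HCN subunit that carries channels to dendrites, had 0.181, 0.2698, 0.966 and 6.65 FPKM in callosal neurons, 0.454, 11.5, 33.6 and 66.6 FPKM in subcerebral neurons and 0.851, 1.24, 1.497 and 4.47 FPKM in corticothalamic neurons. From E16 to P1 every subcerebral value was above every value of the other types. The difference was -2.72 ± 0.64 for callosal minus subcerebral (limma adjusted p = 0.0158; 0.108 with E16 left out, 0.111 with E18 left out and 0.0705 with P1 left out) and 2.39 ± 0.64 for subcerebral minus corticothalamic neurons (limma adjusted p = 0.0284; 0.134 with E16 left out, 0.175 with E18 left out, 0.139 with P1 left out and 0.0711 with the third subtype left out). Its P1 minus E15 change was 3.27 ± 0.74 (limma adjusted p = 0.00433).

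Stac2, which encodes an adaptor of L-type channels, and Rimbp2, which ties calcium channels to release sites, were high in corticothalamic neurons. Stac2 had 6.35, 5.87, 5.71 and 3.27 FPKM in callosal neurons, 8.42, 9.23, 7.83 and 2.99 FPKM in subcerebral neurons and 37.9, 37.3, 60.8 and 55.2 FPKM in corticothalamic neurons. Rimbp2 had 3.71, 6.24, 11.1 and 14.5 FPKM in callosal neurons, 8.49, 9.26, 18.3 and 24.9 FPKM in subcerebral neurons and 46.1, 43.9, 59.4 and 57.6 FPKM in corticothalamic neurons. For both, no callosal or subcerebral value reached the lowest corticothalamic value. The callosal minus corticothalamic difference was -2.95 ± 0.28 for Stac2 (limma adjusted p = 0.000207) and -2.55 ± 0.20 for Rimbp2 (limma adjusted p = 9.52e-05), and the subcerebral minus corticothalamic difference was -2.64 ± 0.28 for Stac2 (limma adjusted p = 0.00154) and -1.82 ± 0.20 for Rimbp2 (limma adjusted p = 0.00182). All of these passed under every alternative tried.

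Nalcn, the sodium leak channel, had 0.0957, 0.424, 1.35 and 4.08 FPKM in callosal neurons, 0.321, 1.40, 4.39 and 7.06 FPKM in subcerebral neurons and 1.61, 3.37, 4.50 and 6.29 FPKM in corticothalamic neurons. It was lower in callosal than in corticothalamic neurons by a difference of -1.15 ± 0.21 (limma adjusted p = 0.00401), and its P1 minus E15 change was 2.10 ± 0.24 (limma adjusted p = 0.000105). Fgf12, an intracellular factor that binds sodium channels, had 1.67, 2.15, 5.04 and 9.49 FPKM in callosal neurons, 1.48, 6.29, 13.3 and 21.9 FPKM in subcerebral neurons and 3.23, 5.84, 7.87 and 17.2 FPKM in corticothalamic neurons. Its P1 minus E15 change was 2.43 ± 0.27 (limma adjusted p = 9.96e-05), and its callosal minus subcerebral difference was -0.87 ± 0.23 (limma adjusted p = 0.0257; 0.148 with E16 left out, 0.134 with E18 left out, 0.124 with P1 left out and 0.0625 with the third subtype left out). Cabp1, a calcium-binding regulator of calcium channels, had a callosal minus subcerebral difference of -0.74 ± 0.24 (limma adjusted p = 0.0461; 0.0735 with no filter, 0.0503 with quantile normalization, 0.158 with E16 left out, 0.182 with E18 left out and 0.163 with P1 left out).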

How the data were processed

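RNA from sorted cortical projection neurons of CD1 mice was sequenced after poly(A) selection, per the labels' protocols. TopHat2, Cufflinks and build mm9 are named in the submitters' processing notes; versions, annotation, use of strand and the pooling of libraries are not given in these sources. The header names no unit, and the values the authors deposited were read as FPKM because Cufflinks was used. FPKM keep no counts, so depth is unknown and no counting interval is given.

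Stage and subtype were additive terms in a limma-trend fit to the 12 pooled values on log2(FPKM + 1), with eBayes trend and robust moderation and 6 residual degrees of freedom (R 4.3.3, limma 3.58.1, statmod 1.5.0). The 13946 entries that reached 1 FPKM in 2 or more columns entered it, Benjamini-Hochberg adjustment ran over all of them, and the threshold was 0.05. The log2 scale with this pseudocount understates changes of low genes. The residual is the interaction of subtype with stage, so a p-value reflects the evenness of a difference and not the spread between libraries; single-stage pairs and the interaction have no test. The script was tested on simulated data with independent noise and no stage effect or interaction, for callosal minus subcerebral neurons only. The other comparisons were not checked in this way.

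The members and the lists of partner and marker genes were chosen with earlier results of these data known. Genes named with all values were the marker Hcn2, the 6 largest differences past the threshold in each of the 4 comparisons, and the gene of highest mean in each subunit class. Of the partner list, the 3 largest past the threshold per comparison were named. Some genes are counted here but their values are not reported, and figures leave them out. Alternatives were a pseudocount of 0.1, no filter, a filter of 5 FPKM, median-ratio scaling, quantile normalization, no trend or robust moderation, each stage or subtype left out, and the E15 callosal value left out, the last chosen after seeing the data. Promoter sequences are from RefSeq (GRCm38.p6); no coordinates of mm9 are given.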

Additional observations from a re-analysis of the deposited data

Results flagged for a closer look

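In 4 genes the P1 minus E15 difference, in log2(FPKM + 1), had opposite signs in different subtypes by more than 0.5 on each side; each rests on 1 pooled value per stage and subtype, and the difference between subtypes was not tested. For Cacna2d2 it was -1.27 in callosal, 1.47 in subcerebral and 0.87 in corticothalamic neurons, a spread of 2.738. For Cacna1e it was 1.79 in callosal, -0.92 in subcerebral and -0.53 in corticothalamic neurons, a spread of 2.702. For Cacng3 it was -0.78 in callosal, 1.23 in subcerebral and 1.40 in corticothalamic neurons, a spread of 2.177. For Cacna1d it was 0.89 in callosal, -0.53 in subcerebral and -0.08 in corticothalamic neurons, a spread of 1.413. All 4 include the E15 callosal value, the one with 56.3 FPKM of summed interneuron markers, whose part was not tested.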

How the results depend on the processing

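Of the 58 calls on single channel genes, taken under each alternative, 547 of the results kept their direction and their side of the threshold, 90 kept their direction but missed the threshold and 0 reversed. Between callosal and subcerebral neurons 14 genes passed, against 6 with either E16 or E18 omitted, 9 with P1 omitted and 21 with E15 omitted. Between callosal and corticothalamic neurons 14 passed, against 18 without E15 and 8 without E16. Between subcerebral and corticothalamic neurons 9 passed, against 16 with E15 omitted, 1 with either E16 or E18 omitted and 2 with P1 omitted. Under the same fits the share of all genes was 7.37% to 44.7% in the first, 13.4% to 32.8% in the second and 1.89% to 45.3% in the third comparison. A fit without a stage, E15 included, has 4 residual degrees of freedom in place of 6. Between P1 and E15 21 passed, with 15 to 23 under the alternatives. The share of all genes was 67.4% in the original fit and is not given for the alternatives. That range thus has no background beside it. Calls that passed under every alternative that tested the gene numbered 5 of 14 between callosal and subcerebral neurons (among them Cacna2d1, Cacng8, Hcn4 and Scn3a) and 8 of 14 between callosal and corticothalamic neurons (among them Cacna1a, Cacna2d1, Cacng2, Cacng7, Cacng8, Hcn4 and Scn3b). They numbered 1 of 9 between subcerebral and corticothalamic neurons (Scn3a) and 12 of 21 between P1 and E15, where Cacng1 was tested in 9 and Cacng5 in 7 of 10 alternatives. No matching count over all genes was made, for these kept calls or for the 58 above. These numbers thus have no background beside them. Median-ratio scaling and quantile normalization moved the median of all genes by less than 0.1 and left these counts within 1 of the original. Of the partner genes, 14 passed between callosal and subcerebral neurons, against 7 with no filter, 19 with E15 omitted, 1 without E16, 2 without E18, 5 with P1 omitted and 9 with the third subtype left out. The share of all genes moved too, from 29.3% to 16.6% with no filter and to 19.2% with the third subtype left out. No paired analysis was possible because each column pools the libraries of a group and carries no replicate; for the same reason no library could be left out in turn. The causes of these changes were not tested. The main limits are the missing library values, the inferred unit and the unknown depth.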

Other observations

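The partner genes not named singly were read by list, as counts and medians in log2(FPKM + 1), with no test of a list. Of 10 tested calcium channel partners, 7 were higher and 0 lower at P1 than at E15, with a median of 1.00. Of 4 genes of the sodium leak channel complex, 3 were higher and 1 lower, with a median of 1.72, and of 4 HCN regulators 3 were higher. Among 11 sodium channel partners, which include the initial segment scaffolds, 4 were higher and 3 lower, with a median of 0.225. In callosal minus corticothalamic neurons 3 of the 4 leak complex genes were lower, with a median of -0.912, and in callosal minus subcerebral neurons 3 of the 4 as well, with a median of -0.518. The same microglial and interneuron marker values stand beside these callosal differences, and their part was not tested. Over all genes tested 67.4% passed between P1 and E15, 31.3% between callosal and corticothalamic and 29.3% between callosal and subcerebral neurons. The medians were 0.00126 for P1 minus E15, 0.0131 for callosal minus corticothalamic and -0.00572 for callosal minus subcerebral neurons.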
